A study of Mus musculus with 6 samples.

Results

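Pitx3 and 41 further genes around it on mouse chromosome 19 make up the set described here, 42 of the 17865 genes measured on the arrays. The genes were chosen by their position, with earlier results of these arrays known, so their values are given as a description. In the gene order of the mouse RefSeq annotation, 19 of them lie on the lower-coordinate side of Pitx3, out to Noc3l at 108 protein-coding genes away, and 22 lie on the higher-coordinate side, out to Nhlrc2 at 63. The set is not a complete stretch of the chromosome: 114 other measured genes lie between Noc3l and Nhlrc2. They are given separately, as what is left of that stretch without the members.

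The mutant samples were 3 pools, each of 3 ventral midbrains from E14.5 Pitx3-/- mouse embryos. They were compared with 1 reference RNA from 10 Pitx3+/+ ventral midbrains of the same stage. The RNA of a pool went onto 2 arrays in opposite dyes, which gives 6 arrays in all. The labels used here do not name the Pitx3 allele, the strain or how the mutation was made. The reference is a single RNA, so the 3 ratios share its errors and its own spread between embryos is not measured. Ventral midbrain is a mixed tissue: in bulk RNA, fewer cells of a type and less RNA per cell cannot be told apart.

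Pitx3 encodes a homeobox transcription factor that in the brain is made by the dopaminergic neurons of the substantia nigra and ventral tegmental area, and outside the brain by the developing lens. A mutation that is carried through crosses travels with the DNA on both sides of it, so homozygous mutants can differ from wild-type animals of another strain at neighbouring genes that have nothing to do with the mutated gene itself. Sequence differences of this kind can alter how much RNA a neighbour makes, or how well its RNA binds an array probe, and the sign of the difference varies from gene to gene.

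The gene next to Pitx3 on the higher-coordinate side is Gbf1. The starts of these genes lie 4233 bases apart on opposite strands in GRCm38.p6, so the stretches before their starts face each other across the gap. The RefSeq sequence tables held the promoter of 34 of the 42 genes. The 250 bases before the start are shown for Pitx3, because it is the mutated gene, and for Gbf1 and 4 further genes, because their ratios were beyond 0.1 in size on 1 side of 0 in every pool. Nhlrc2, whose ratios were too, has no entry there. They run 5′ to 3′ on the strand of the gene, and the capitals mark each CCAAT box, searched as CCAAT and as its reverse complement ATTGG.

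Pitx3 (chr19:46148326-46148575, minus strand): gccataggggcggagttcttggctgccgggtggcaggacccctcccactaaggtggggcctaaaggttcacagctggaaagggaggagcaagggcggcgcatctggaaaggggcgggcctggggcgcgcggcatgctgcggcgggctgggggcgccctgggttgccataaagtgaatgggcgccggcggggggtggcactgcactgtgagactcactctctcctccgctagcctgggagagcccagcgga
Gbf1 (chr19:46152308-46152557, plus strand): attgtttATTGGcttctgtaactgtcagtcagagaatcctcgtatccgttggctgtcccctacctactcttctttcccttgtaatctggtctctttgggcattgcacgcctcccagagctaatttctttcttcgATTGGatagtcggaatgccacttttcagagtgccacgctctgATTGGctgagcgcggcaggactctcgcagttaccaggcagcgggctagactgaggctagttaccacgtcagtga
As3mt (chr19:46707208-46707457, plus strand): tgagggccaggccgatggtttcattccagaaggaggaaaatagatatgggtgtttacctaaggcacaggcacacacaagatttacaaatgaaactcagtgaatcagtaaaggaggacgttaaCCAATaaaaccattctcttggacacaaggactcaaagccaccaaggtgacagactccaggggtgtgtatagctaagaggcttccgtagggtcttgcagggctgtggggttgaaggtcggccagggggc
Bloc1s2 (chr19:44146447-44146696, minus strand): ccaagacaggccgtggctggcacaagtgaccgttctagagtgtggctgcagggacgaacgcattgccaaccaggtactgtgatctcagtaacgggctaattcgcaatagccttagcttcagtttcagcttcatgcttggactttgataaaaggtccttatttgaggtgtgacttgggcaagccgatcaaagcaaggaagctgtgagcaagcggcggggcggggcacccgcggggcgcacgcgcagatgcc
Gsto1 (chr19:47854723-47854972, plus strand): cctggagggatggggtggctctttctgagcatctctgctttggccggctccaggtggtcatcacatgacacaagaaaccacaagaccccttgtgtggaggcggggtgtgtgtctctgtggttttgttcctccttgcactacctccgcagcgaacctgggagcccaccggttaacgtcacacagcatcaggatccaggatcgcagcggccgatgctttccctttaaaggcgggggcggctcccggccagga
Pi4k2a (chr19:42090185-42090434, plus strand): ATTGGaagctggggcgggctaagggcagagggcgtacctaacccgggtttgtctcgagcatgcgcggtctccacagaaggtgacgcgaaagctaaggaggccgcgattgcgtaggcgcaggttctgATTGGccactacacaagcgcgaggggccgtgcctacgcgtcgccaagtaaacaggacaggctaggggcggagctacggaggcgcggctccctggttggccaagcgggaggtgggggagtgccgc

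The Gbf1 stretch holds 3 such boxes, that of Pi4k2a 2 and that of As3mt 1, and there is none in those of Pitx3, Bloc1s2 and Gsto1. Over the set, 14 of 34 promoters (41.2%) hold at least 1 box, and 34.5% of all 27025 mouse promoters of the same length do. The letters TAATCC, a site bound by homeobox factors of the bicoid type to which Pitx3 belongs, were searched on both strands and cannot hold the other motif. They are in none of the 34 promoters of the set and in 6.38% of all promoters. These are matches of letters in short windows and say nothing about binding.

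Whole-array facts bear on what follows. From 46.1% to 51.7% of gene probes were above the local background in the mutant channel of the 6 arrays, and from 47.5% to 54.6% in the reference channel. Pool 3 stood apart from the others: across probes, which are not independent and which share the reference, the ratios of pools 1 and 2 correlated at 0.59, and pool 3 correlated at -0.21 with pool 1 and at -0.19 with pool 2. Of 8 markers of midbrain dopaminergic neurons, 6 were above background in both channels on all arrays and 1, Lmx1b, on none. Their mean log2 ratios lay on both sides of 0. Slc18a2 was at -0.36, Th at -0.14, Nr4a2 at -0.13, Slc6a3 at -0.12 and Ddc at -0.020. On the other side were En1 at 0.69, Foxa2 at 0.18 and Lmx1b at 0.031. Slc6a3 cleared background on 2 arrays in the reference channel and on none in the mutant channel, so its ratio is that of a dim probe. For the markers of the ventral forebrain and hypothalamus (6 of 6 measured), the mean log2 ratio was -0.35 in pool 1, -0.33 in pool 2 and 0.012 in pool 3. Only Dlx1, Dlx2 and Isl1 were far from 0 in pools 1 and 2. Nkx2-1, Six3 and Sim1 lay between -0.068 and 0.025 in every pool. The summed signal of all 6 markers ran from 534 to 729 in the mutant pools and from 691 to 759 in the reference channels. None of them was at background throughout. The part of tissue makeup in the ratios of the chromosome 19 genes was not tested.

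Ratios are given as log2 of mutant over reference, averaged over both dye orientations of a pool. Signals are normalised fluorescence values that include an added offset of 50, so a signal near 55 is an unlit spot and ratios are pulled towards 0, those of dim genes most. The order of the genes by size depends on this offset: with it Gbf1 was furthest from 0, at 0.29, and with an offset of 0 Nhlrc2 was at -0.58 and Pi4k2a at -0.51, both further from 0 than Gbf1 at 0.38. Of the 31769 gene probes, 0 (0%) passed limma's test with Benjamini-Hochberg adjustment in 3 pools, while 1051 of the 17865 genes had an unadjusted p under 0.05. No gene is called here, and each value below stands as measured. Without pool 3 the same fit, left with pools 1 and 2, called 1543 of the 31769 probes, among them those of 11 of the 42 genes of the set. At an unadjusted p under 0.05 that fit held 38.1% of the set and 18.8% of all genes. Without pool 1 or pool 2 the fit called 0 probes. The genes of the set were unevenly measurable: 24 were above background in both channels on all 6 arrays, 10 on some arrays or in 1 channel only, and 8 in no channel of any array.

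Pitx3 itself was among the 8 without a signal. Its normalised signal was 56.1, 55.4 and 54.8 in mutant pools 1, 2 and 3, against 54.7, 55.1 and 53.5 in the reference channels of the same arrays. Neither channel was above background on any array. The log2 ratios of 0.036, 0.0092 and 0.034 are therefore differences between unlit spots, and this probe gives no check of the genotype. The other 7 genes without a signal were Hps6, Hif1an, Tlx1, Lbx1, Sfxn2, Cyp17a1 and Nt5c2, with mean ratios between -0.0050 and 0.021. Tlx1 and Lbx1 are homeobox genes with main roles in the spleen and spinal cord, and Cyp17a1 encodes an enzyme of steroid hormone synthesis. For none of these genes is a level in either genotype given.

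**Figure D1:**
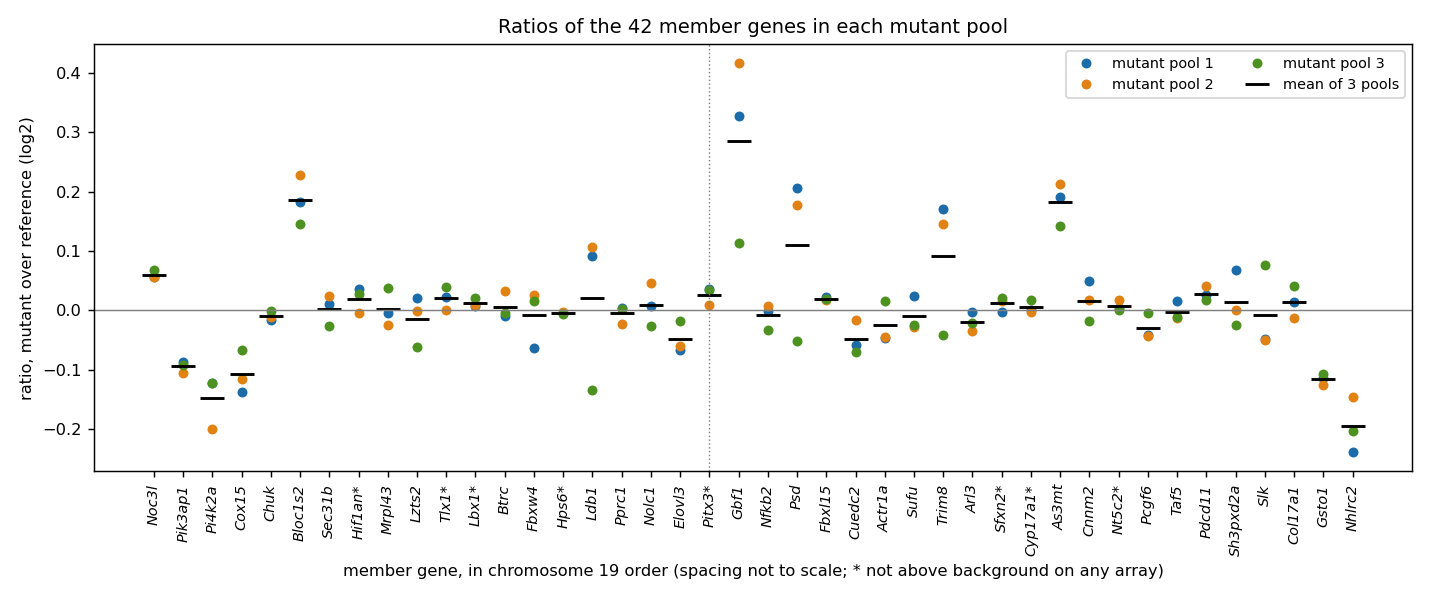
Log2 ratio of mutant over reference (vertical axis) of each of the 42 genes in chromosome order (horizontal axis), with a coloured point for each mutant pool and a black dash for the mean of 3. Gbf1 stands highest with a mean of 0.29 and Nhlrc2 lowest at -0.20, while Gbf1, Psd, Trim8 and Ldb1 have pool 3 well below pools 1 and 2.

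Genes of membrane traffic and organelles include the neighbour of Pitx3 on the higher-coordinate side. Gbf1 encodes an exchange factor that switches on Arf GTPases at the Golgi. Its signal was 269, 287 and 198.5 in mutant pools 1, 2 and 3, against 215, 215 and 183.5 in the reference. The log2 ratio was 0.33 in pool 1, 0.42 in pool 2 and 0.11 in pool 3, with a mean of 0.29 ± 0.16 (SD, n = 3), 1.22 times the reference level. All 6 arrays lay above 0, and both pools 1 and 2 stood clear of pool 3. A second, dimmer Gbf1 probe was not above background on any array and stood at 0.013 ± 0.027, so only 1 probe carries the value. The mean of both probes was 0.15.

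Bloc1s2, which encodes a subunit of a complex that builds lysosome-related organelles, lies 35 protein-coding genes from Pitx3 on the lower-coordinate side. Its signal was 317, 294 and 273.5 in the mutant pools, against 279, 251.5 and 247 in the reference. The log2 ratio was 0.18, 0.23 and 0.15 in pools 1, 2 and 3, with a mean of 0.19 ± 0.04 (SD, n = 3). The 3 pools lay close together and all 6 arrays were above 0. Median centring instead of loess gave 0.11. Pi4k2a, a phosphatidylinositol kinase of the Golgi and endosomes, is 61 genes away on the same side and stood on the other side of 0. Its signal was 75.3, 68.5 and 68.5 in the mutant pools, against 82.0, 78.7 and 74.6 in the reference. The ratio was -0.12 in pool 1, -0.20 in pool 2 and -0.12 in pool 3, with a mean of -0.15 ± 0.05 (SD, n = 3), and all 6 arrays lay below 0. With an offset of 0 it was -0.51.

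Psd encodes an exchange factor for the GTPase Arf6 and is 3 genes from Pitx3. Its signal was 806, 674.5 and 490.4 in the mutant pools, against 699, 596.5 and 508 in the reference. Its log2 ratio was 0.21 in pool 1, 0.18 in pool 2 and -0.051 in pool 3, so the third pool was on the opposite side of 0. The mean was 0.11 ± 0.14 (SD, n = 3) over the 3 pools and 0.19 over pools 1 and 2. Median centring instead of loess gave Psd a ratio of 0.0084. A second probe stood at 0.055, 0.12 and 0.022, which is lower in pools 1 and 2 and above 0 in pool 3. The remaining members of this group, the dynactin subunit gene Actr1a, the ciliary GTPase gene Arl3 and the COPII coat gene Sec31b, had mean ratios between -0.026 and 0.0029.

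Genes of metabolism, transport and mitochondria held a pair with little spread. As3mt, the arsenite methyltransferase gene, is 15 genes from Pitx3 on the higher-coordinate side. Its signal was 163.5, 152 and 162 in the mutant pools, against 143, 131 and 146.5 in the reference. The log2 ratio was 0.19, 0.21 and 0.14 in pools 1, 2 and 3, with a mean of 0.18 ± 0.04 (SD, n = 3) and all 6 arrays above 0. With an offset of 0 it was 0.29. The second As3mt probe stood at 0.15, 0.091 and 0.11, on the same side in every pool, with a mean of 0.12 ± 0.03.

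Gsto1, an omega-class glutathione transferase gene, is 32 genes from Pitx3 on the higher-coordinate side. Its signal was 79.0, 70.5 and 70.8 in the mutant pools, against 85.5, 77.0 and 76.3 in the reference. The ratio was -0.11, -0.13 and -0.11 in pools 1, 2 and 3, with a mean of -0.12 ± 0.01 (SD, n = 3), and all 6 arrays lay below 0. With an offset of 0 it was -0.37. It was above background on 5 arrays in the mutant channel and on all 6 in the reference channel.

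Cox15, whose product makes the heme A of cytochrome c oxidase, stood at -0.14, -0.12 and -0.067 in the 3 pools, with a mean of -0.11 ± 0.04, and all 6 arrays lay below 0. Its mean was -0.21 with an offset of 0 and -0.16 with median centring. Its second probe stood at -0.048, -0.061 and -0.031, on the same side and smaller. Elovl3, a fatty acid elongase gene and the neighbour of Pitx3 on the lower-coordinate side, stood at -0.067, -0.060 and -0.018. These ratios are small, and 1 of the 6 arrays of Elovl3 was above 0. Its mean was -0.049, and -0.12 with an offset of 0. Mrpl43, a mitochondrial ribosomal protein gene, had a mean of 0.0025, and the magnesium transport gene Cnnm2 a mean of 0.016.

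Genes of transcription, chromatin and signalling were mostly near 0. Ldb1, a cofactor of LIM-homeodomain factors that lies 4 genes from Pitx3, was the exception in single pools. Its signal was 333, 320.2 and 228 in the mutant pools, against 312.5, 297 and 249.9 in the reference. The ratio was 0.091 in pool 1, 0.11 in pool 2 and -0.13 in pool 3, so the mean of 0.021 ± 0.13 (SD, n = 3) describes none of the pools, and over pools 1 and 2 it was 0.099. The other Ldb1 probes had means of -0.013 and 0.0067, the last of them from a probe not above background. Pik3ap1, an adaptor of PI3-kinase known best in B cells, stood at -0.087, -0.11 and -0.092, with a mean of -0.095 ± 0.010 and all 6 arrays below 0. With an offset of 0 Pik3ap1 was at -0.25. Its second probe was not above background on any array, and the mean of both was -0.050. Pprc1, a coactivator gene 3 genes from Pitx3, stood at 0.0038, -0.022 and 0.0027. Sufu, a brake on Hedgehog signalling, stood at -0.0096 on average, Lzts2 at -0.015, the polycomb gene Pcgf6 at -0.030 and Taf5, which encodes a subunit of the general factor TFIID, at -0.0031.

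Genes of the NF-kappaB pathway and of ubiquitin ligases were also mostly near 0. Trim8, a ubiquitin ligase gene 9 genes from Pitx3, had signals of 996, 728 and 653 in the mutant pools, against 884, 658 and 673 in the reference. Its ratio was 0.17 in pool 1, 0.15 in pool 2 and -0.042 in pool 3, with a mean of 0.092 ± 0.12 over 3 pools and 0.16 over pools 1 and 2. Median centring instead of loess gave Trim8 a ratio of 0.0016. Its second probe was not above background on any array, and the mean of both was 0.040. As for Psd and Ldb1, pool 3 lay across 0 from the others. Cuedc2, a ubiquitin-binding protein gene, stood at -0.058, -0.017 and -0.070, and its other 2 probes had means of -0.033 and -0.030. The mean of the first was -0.049, and -0.12 with median centring. Nfkb2, which encodes an NF-kappaB subunit and is 2 genes from Pitx3, stood at -0.00048, 0.0069 and -0.033, and the F-box gene Fbxl15 at 0.021, 0.018 and 0.019. Chuk, an activating kinase of the pathway, and the F-box genes Btrc and Fbxw4 had means between -0.0098 and 0.0060.

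The other genes of the set include 3 of ribosome production. Noc3l, the outermost gene on the lower-coordinate side, stood at 0.055, 0.056 and 0.067, with 5 of 6 arrays above 0. Its mean was 0.060, and 0.29 with an offset of 0 and 0.11 with median centring. Nolc1, 2 genes from Pitx3, stood at 0.0078, 0.045 and -0.026, and Pdcd11 had a mean of 0.028. Sh3pxd2a, Slk and Col17a1, which encode a podosome scaffold, a kinase and a hemidesmosome collagen, had means between -0.0074 and 0.014. Nhlrc2 is the outermost gene on the higher-coordinate side. Its signal was 77.6, 76.5 and 69.9 in the mutant pools, against 91.6, 84.7 and 80.5 in the reference. The ratio was -0.24 in pool 1, -0.15 in pool 2 and -0.20 in pool 3, with a mean of -0.20 ± 0.05 (SD, n = 3), 0.87 times the reference level, and all 6 arrays lay below 0. With an offset of 0 the ratio was -0.58. Its second probe was not above background on any array, and the mean of both was -0.090.

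Counted over the set, 11 of 42 genes (26.2%) had an unadjusted p under 0.05, where 5.88% of all 17865 genes did. Of the 11, 4 stood above the reference and 7 below it, where the shares over all genes were 2.86% above and 3.02% below. At an unadjusted p under 0.001 there were 6 of the set (14.3%) and 0.174% of all genes. All 6 arrays had the same sign for 9 of the set (21.4%) and for 2.98% of all genes. These counts are from the contrast that was known when the set was chosen, and nothing is read from their distance to the background. The files hold no genotypes of the embryos beyond the labels, so effects of the lost Pitx3 and of DNA carried along with the mutation cannot be told apart in them. The median ratio was 0.0041 over the set and 0.00016 over all genes, so ratios above and below 0 balanced. The median size of a ratio, regardless of sign, was 0.019 over the set and 0.012 over all genes. By role, the genes with an unadjusted p under 0.05 were 3 of 8 in membrane traffic, 4 of 9 in metabolism, 1 of 11 in transcription and signalling, 1 of 7 in the NF-kappaB and ubiquitin group, 1 of 3 in ribosome production, 0 of 3 in the kinase and adhesion group, and Nhlrc2.

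The genes differed in how near pool 3 lay to the others. A low p with 3 pools selects genes whose pools share a sign: over the whole array, 1030 of the 1051 genes with an unadjusted p under 0.05 had 1 sign in all 3 pools, and so had the 11 of the set. Nothing is read from that agreement. In size, pool 3 of these 11 was between 0.29 (Elovl3) and 1.87 times the mean of pools 1 and 2 (Cuedc2), with a median of 0.76. Gbf1 was at 0.11 in pool 3 against a mean of 0.37 in pools 1 and 2. Nhlrc2, Pik3ap1 and Gsto1 were close to that mean in pool 3, with -0.20 against -0.19, -0.092 against -0.096 and -0.11 against -0.12. Psd, Trim8 and Ldb1 had the opposite sign in pool 3. Over the whole set pool 3 lay on the side of the mean of pools 1 and 2 for 24 of 42 genes (57.1%), for 60 of the 114 other genes between Noc3l and Nhlrc2 (52.6%), and for 44.4% of all genes. The 3 ratios share 1 reference, which by itself moves them together.

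**Figure D2:**
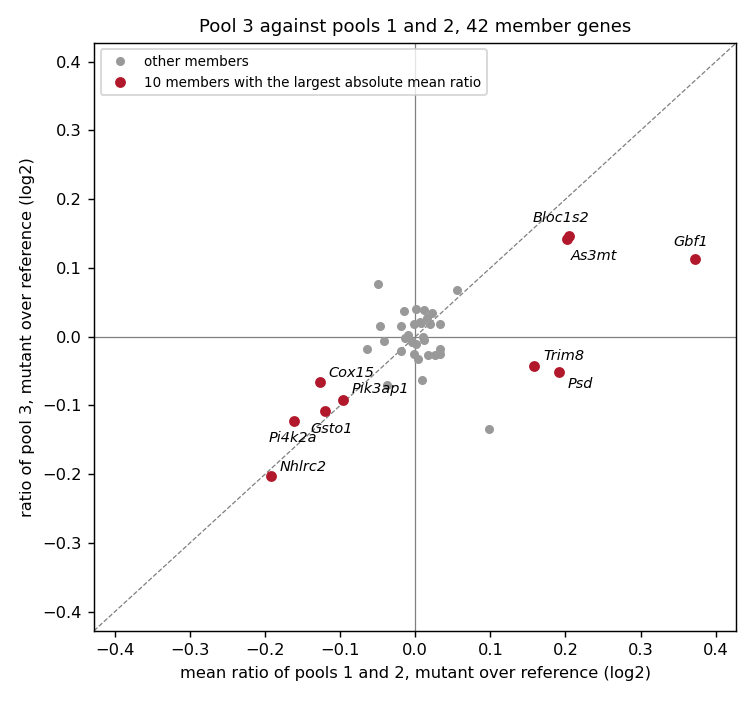
Log2 ratio in mutant pool 3 (vertical axis) against the mean of mutant pools 1 and 2 (horizontal axis) for the 42 genes, with the 10 largest mean ratios in red and the dashed line marking equal values. Nhlrc2, Gsto1 and Pik3ap1 lie near the line, Gbf1 lies far under it at 0.37 and 0.11, and Psd, Trim8 and Ldb1 (grey, lower right) lie across 0.

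The dye orientations were compared in the same way. Gbf1 stood at 0.27 with the mutant in Cy5 and 0.30 with the mutant in Cy3, and As3mt at 0.18 in both orientations. Bloc1s2 stood at 0.26 and 0.11, Pi4k2a at -0.10 and -0.19, and Nhlrc2 at -0.23 and -0.16, on 1 side of 0 in both but with sizes that differ. Psd was at 0.031 with the mutant in Cy5 and 0.19 with the mutant in Cy3. Ldb1, at 0.13 and -0.084, and Cuedc2, at 0.028 and -0.12, lay on opposite sides. The mean of both orientations removes a dye effect only where it is equal on both arrays of a pool.

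**Figure D3:**
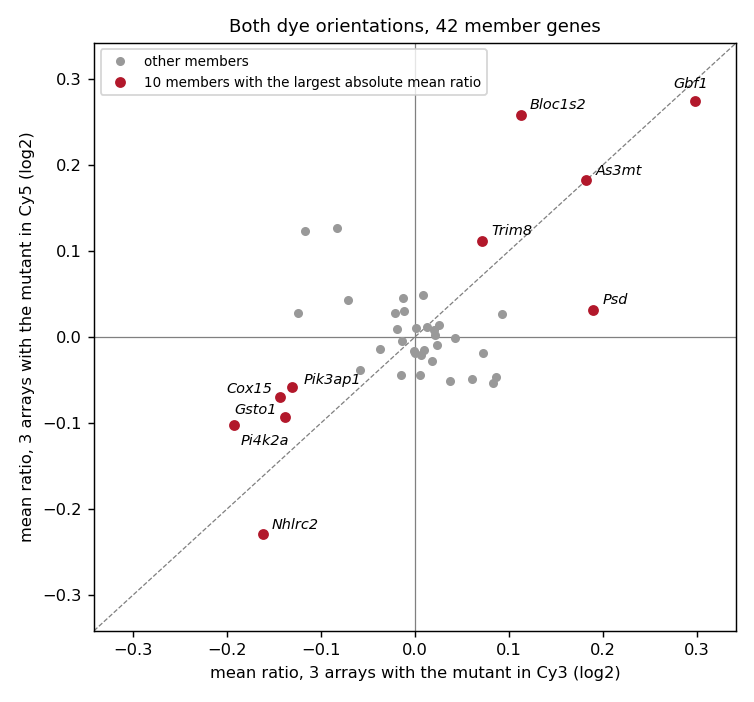
Mean log2 ratio over the 3 arrays with the mutant in Cy5 (vertical axis) and over the 3 with the mutant in Cy3 (horizontal axis) for the 42 genes, with the 10 largest mean ratios in red and the dashed line marking equal values. Gbf1 and As3mt lie near the line, and all 10 red points have the same sign in both orientations.

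The 114 other measured genes between Noc3l and Nhlrc2 are what is left of the stretch without the members. The choice of members thus shaped this list too. Of the whole stretch, members included, 23 of 156 genes (14.7%) had an unadjusted p under 0.05, and 6 (3.85%) one under 0.001. Over all genes the shares were 5.88% and 0.174%. Of the 114, 12 (10.5%) had an unadjusted p under 0.05, 7 above the reference and 5 below, and none had one under 0.001. The same sign on all 6 arrays was seen in 7 (6.14%). Leaving out 1 pool moved the count strongly, to 5 without pool 1 (4.39%, and 2.84% of all genes), 8 without pool 2 (7.02%, and 2.84% of all genes) and 20 without pool 3 (17.5%, and 18.8% of all genes). The set's own count was 9, 10 and 16 in these fits. Without pool 3 the share of the other genes was thus under that of all genes, and with it above.

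The 5 largest mean ratios among these 114 genes were as follows. Tcf7l2, a transcription factor of the Wnt pathway that lies 57 genes from Pitx3, stood at -0.49, -0.23 and -0.15 in pools 1, 2 and 3, with a mean of -0.29 ± 0.18. Atp5md, for a small subunit of mitochondrial ATP synthase, stood at -0.11, -0.19 and -0.085, but at 0.016 with the mutant in Cy5 and -0.27 with the mutant in Cy3. Ina, a neuronal intermediate filament gene 18 genes from Pitx3, stood at 0.16, 0.19 and 0.0012, near 0 in pool 3. Oga, the enzyme that removes O-linked GlcNAc, stood at -0.23, -0.14 and 0.038, across 0 in pool 3. Sfr1, a gene of DNA repair, stood at -0.088, -0.11 and -0.050. It cleared background on 4 arrays in the reference channel and on none in the mutant channel. The bound computed from these arrays was a mutant level at least 1.03-fold lower. That bound compares the bright side's mean with the dim side's, each dim value raised to the lowest signal above background. It carries no measure of error, so a bound this close to 1 does not establish a lower level.

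Along chromosome 19, the measured genes were taken in blocks of 40 counted from Pitx3. In the block next to Pitx3 on the higher-coordinate side, 22.5% had an unadjusted p under 0.05, and in the next one 10.0%. The block next to Pitx3 on the lower-coordinate side had 7.5% and the one beyond it 17.5%. The 12 full blocks other than the first on either side and the second on the lower-coordinate side had between 0% and 12.5%, with a median of 8.75%. The 7.5% block, with 3 such genes, lies between the blocks of 17.5% and 22.5%, and members are part of all these counts. These differences of a few genes were not tested. Of the genes with an unadjusted p under 0.05, 4 of the 9 in the 22.5% block and 3 of the 7 in the 17.5% block are members.

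**Figure D4:**
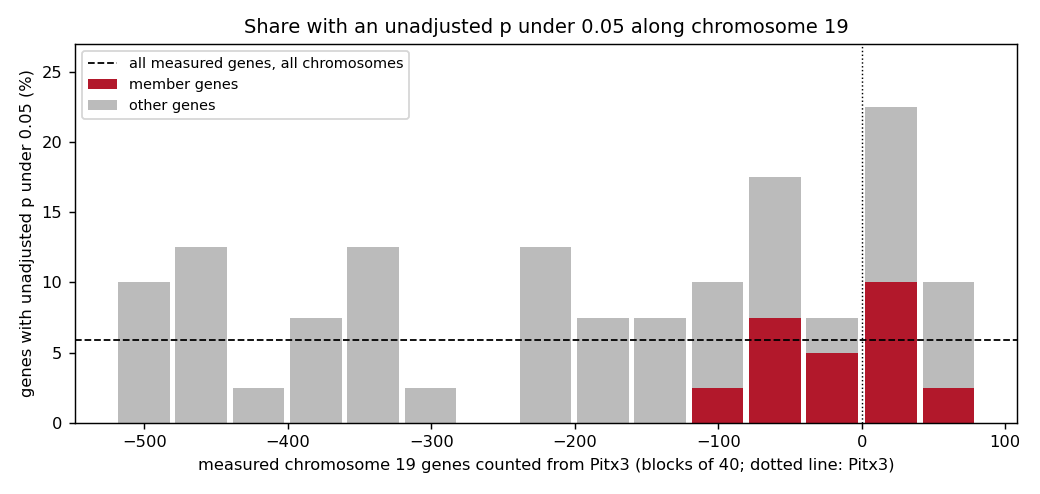
Percent of measured genes with an unadjusted p under 0.05 (vertical axis) in blocks of 40 along chromosome 19, counted from Pitx3 (horizontal axis, dotted line), with the part from the set in red, other genes in grey and the share over all genes dashed. The bars next to Pitx3 reach 22.5% on the right and 7.5% on the left, with 17.5% in the block beyond it.

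Chromosome 19 as a whole had 613 measured genes, of which 58 (9.46%) had an unadjusted p under 0.05, and 8.23% without the 42. The other 19 chromosomes lay between 4.41% and 7.11%, with chromosome 11 the highest. The 457 genes outside the stretch from Noc3l to Nhlrc2 had 7.66%, and the 156 genes of the stretch, members included, had 14.7%. Whether these shares differ from those of other chromosomes was not tested. Chromosome 19 ranked first in 11 of 16 processing settings. It ranked 19 with median centring in place of loess, 8 without pool 3, 8 with the mutant in Cy5 only, 13 with the mutant in Cy3 only, and 2 with an intensity trend in the spread. Its dopamine gene Slc18a2, the vesicular monoamine transporter, lies 85 genes from Pitx3 and stood at -0.38, -0.38 and -0.32. The retinaldehyde dehydrogenase gene Aldh1a1, 229 genes away on the other side, stood at -0.13, -0.20 and -0.20. It cleared background on all 6 arrays in the reference channel but on none in the mutant channel. The bound, again without a measure of error, was a mutant level at least 1.08-fold lower.

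**Figure D5:**
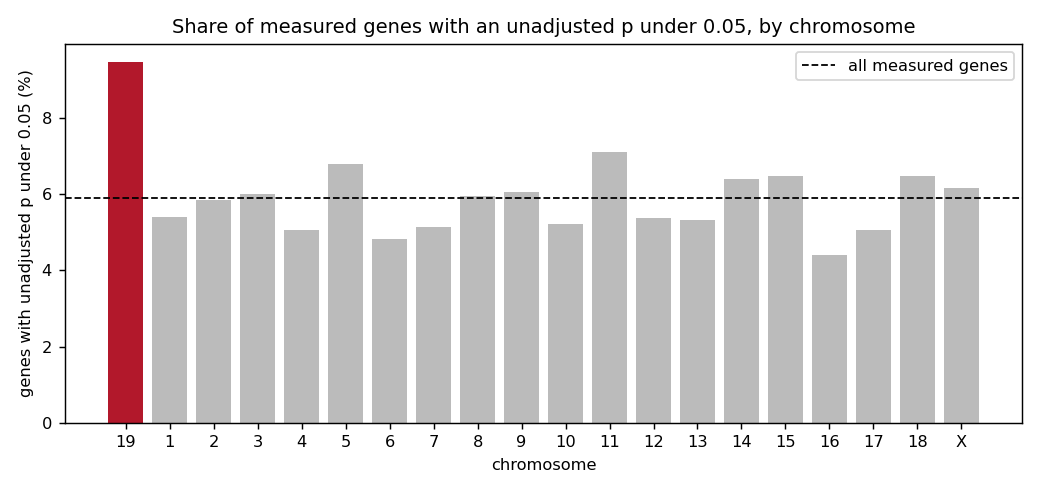
Percent of measured genes with an unadjusted p under 0.05 (vertical axis) on each chromosome (horizontal axis), with chromosome 19 first and the share over all genes dashed. Chromosome 19 stands at 9.46%, and the highest of the other 19, chromosome 11, at 7.11%.

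The genes whose values over the 6 arrays were most like those of Gbf1 were Mpi (Pearson r = 0.998), Mapk4 (0.991) and Dnah2 (0.990), out of all measured genes. The likeness lies in the order of the arrays and not in the level. Their mean ratios were -0.0077, -0.011 and 0.027, against 0.29 for Gbf1, and Mapk4 was not above background on any array. Mpi lies on chromosome 9, Mapk4 on chromosome 18 and Dnah2 on chromosome 11. With 6 arrays that share 1 reference and 17865 genes to choose from, correlations this high carry no weight of their own.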

How the data were processed

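RNA of E14.5 ventral midbrain was measured on 6 dye-swapped 2-colour arrays. Per the deposited protocol file, an Agilent scanner and the ImaGene software were used. The deposited raw files give spot and local background intensity in both dyes. The authors' processed values, deposited as log2 ratios and used as an alternative, had print-tip loess and no background subtraction, per that file.

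From the intensities, limma 3.58.1 in R 4.3.3 applied normexp (offset 50, median local background) and loess (span 0.3). Of 34992 spots, 3223 controls were left out. Ratios of mutant over reference were averaged over the 2 arrays of a pool (n = 3 pools) and fitted with lmFit and eBayes against 0 (residual degrees of freedom 2, prior 2.74). P-values were adjusted by Benjamini-Hochberg across all 31769 gene probes, with a threshold of 0.05. The steps were tested on simulated data, with known changes placed in bright probes only and larger than the mean ratios of the set. That test does not cover dim genes or small ratios. The offset understates folds. A spot was above background when it was over 2 SDs brighter than the mean of its local background. Each gene took its brightest probe. Symbols came from the platform table (26000 probes had 1, 5769 none, 0 several), updated through RefSeq GRCm38.p6, which also gave gene order and promoters. The arrays name no build.

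The members, the other lists and the tests were chosen with earlier results of these data known. Named in every pool are Pitx3, its 4 nearest members on each side, members with an unadjusted p under 0.05 and the 10 largest ratios. The 5 largest other ratios in the stretch, Slc18a2 and Aldh1a1, and the 3 genes most like Gbf1 are named too. Nothing says that pools came from separate litters, so p-values measure the spread between these pools.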

Additional observations from a re-analysis of the deposited data

Results flagged for a closer look

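Elovl3, the fatty acid elongase gene next to Pitx3, had 1 array far from the others. Where Cy5 held the mutant RNA of pool 3, its log2 ratio was 0.011, and the nearest of the other 5 arrays stood at -0.047. This gap is 0.67 of the whole range of the 6 arrays, beyond Dixon's critical value. That value assumes 6 independent arrays, and these are 3 pools in both dye orientations with 1 reference. The array ratios of 19 genes were examined in this way, and with independent arrays chance alone gives about 1 such result in 20.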

How the results depend on the processing

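All 16 settings draw on the same 6 arrays, whose small number, with a single reference RNA, limits the precision. Of the 19 genes given in every pool, 13 kept the sign of their ratio under every alternative computed for them, but not the size: with median centring Psd was at 0.0084 and Trim8 at 0.0016, and with an offset of 0 dim genes such as Nhlrc2 (-0.58), Pi4k2a (-0.51) and Gsto1 (-0.37) were far further from 0. Ratios of Ldb1 were -0.069 with median centring, -0.084 with the mutant in Cy3 only and from -0.021 to 0.099 when 1 pool was left out. Pprc1 stood at 0.0027 in the authors' processed log2 ratios, at 0.018 with the mutant in Cy3 only and from -0.0099 to 0.0033 with 1 pool left out, and Nolc1 at -0.0034, -0.011 and from -0.0093 to 0.027. With the mutant in Cy5 only, Pitx3 stood at -0.019 and Cuedc2 at 0.028. Nfkb2 ran from -0.017 to 0.0032 with 1 pool left out.

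The median ratio of the set was 0.019 with an offset of 0, -0.0030 with median centring, -0.0074 over bright probes only and -0.0032 with the mutant in Cy5 only, and ran from 0.0018 to 0.0049 with 1 pool left out. That of the 114 other genes was 0.0073 with an offset of 0, -0.0014 with median centring, 0.010 with the mutant in Cy5 only and -0.0062 in Cy3 only, and ran from -0.0011 to 0.0034 with 1 pool left out. Of these other genes, 21 had an unadjusted p under 0.05 with median centring, 6 over bright probes only (57 tested), 27 with the mutant in Cy5 only, 25 in Cy3 only and from 5 to 20 with 1 pool left out. Their share was under that of all genes with median centring (18.42% against 19.01%), Cy5 only (23.68% against 24.23%) and Cy3 only (21.93% against 23.53%). Over bright probes only, their share was above that of all genes so tested, at 10.53% against 5.63%. The set's count was 18 with the mutant in Cy3 only (42.9%, and 23.5% of all genes). With 1 pool left out it ran from 9 (21.4%, and 2.84% of all genes) to 16 (38.1%, and 18.8% of all genes). The 0 probes past the adjusted threshold became 18 with the pool as a random block, 29 with 6 independent arrays, 11 with an intensity trend, 312 and 430 with the mutant in Cy5 or in Cy3 only, and from 0 to 1543 with 1 pool left out. The fits on 1 orientation carry the dye effect. The cause of the other shifts was not tested. Using the mean local background in normexp, an alternative chosen after seeing the data, gave 13 of the set (30.95%, and 6.25% of all genes).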
